A study of Mus musculus with 12 samples.

Results

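The transcripts described here are 2461 predicted noncoding RNAs of mouse kidney that carried 10 or more uniquely mapped reads in each of the 4 normal kidney libraries. They were chosen by their read counts in normal kidney alone, out of 31600 predicted transcripts, which bear the name ncRNA_predict and a running number, in tables of 42452 transcripts in all. The other 10852 transcripts have a match in noncoding RNA databases and are called matched transcripts below. A transcript missing from a library's table was counted as 0 reads there. The rule also sets aside 3 predicted transcripts by name, and none of those reaches 10 reads in all 4 normal libraries. Differences from normal kidney are given below as a description, with no test, and the tests compare injured kidneys with each other. The normal libraries that chose the transcripts also entered the estimate of spread in these tests. In fits of the 8 injured libraries alone 17 of the 47 passing results passed again, so the adjusted p of those fits stands beside each one given in full. The position of these transcripts in the genome and their sequences were not used here.

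Predicted noncoding transcripts are stretches of RNA that reads cover without a known gene to account for them, and such RNAs can be independent genes, unannotated ends or introns of other genes, or parts of repeats. Ligation of a ureter raises pressure in the tubules of that kidney and leads to tubular injury, inflammation and interstitial fibrosis. Antibody to the glomerular basement membrane (GBM) causes a glomerulonephritis, with inflammation that starts in the glomeruli. Smad3 is a transcription factor that is phosphorylated by the TGF-β receptor and drives many fibrosis genes.

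All mice were C57BL/6J, either wild type (WT) or Smad3 knockout (KO); the deleted part of Smad3 and the age of the animals are not given in the sources used here. Kidneys were labelled normal (untreated), unilateral ureteral obstruction (UUO) with the left ureter tied and the kidney taken at day 5, or anti-GBM glomerulonephritis at day 10. Mice of the anti-GBM groups received sheep IgG in Freund's complete adjuvant and then sheep antibody to mouse GBM at 60 μg/g body weight, so both agents separate these groups from the normal ones. The protocol also speaks of sham-operated controls, whereas the normal samples are labelled untreated. Each of the 6 groups had 2 libraries. The library titles carry different codes, but nothing states that each came from its own animal, so p-values measure the spread between these libraries, which may be partly technical. Libraries were numbered 1 and 2 within a group only to name them. No kidney cell type could be checked, since 0 of 17 cell type marker genes looked for are named among the matches.

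The libraries held between 4595261 (WT UUO 1) and 7342937 (WT UUO 2) reads on the listed transcripts. The 2461 predicted transcripts took 3.38% to 3.64% of these reads in the 4 normal libraries and 1.96% (KO anti-GBM 1) to 5.08% (WT UUO 2) in the injured ones. One library of each of 3 groups stood apart. In WT UUO 1, KO UUO 1 and KO anti-GBM 1 the reads of a predicted transcript were piled on fewer of its bases: the covered length was 0.327 to 0.489 of that of randomly placed reads, against 0.735 to 0.902 in the other 9 libraries. This ratio, called breadth below, was the median over those of the 2461 transcripts longer than 500 bases with 20 to 200 reads. Of the 2461 transcripts, 193 to 360 had 0 reads in the 3 libraries of low breadth, against 2 to 39 in the other 5 injured libraries. The part of breadth in the differences below was not tested. Counts of transcripts that passed a test are given with and without these libraries.

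In normal kidney these predicted transcripts were mostly of low level. Their median was 5.37 RPKM, a level corrected for transcript length and library size, scaled here by edgeR's TMM method and averaged over the 4 normal libraries. The 4939 matched transcripts that pass the same threshold of reads had a median of 9.35 RPKM. Lengths ran from 150 to 9511 bases with a median of 1310 bases, against 405 bases for the other 29139 predicted transcripts and 3581 bases for those matched transcripts. A few transcripts held much of the signal: the single highest took 3.02% of the reads on all 2461, the top 10 took 16.2% and the top 100 took 47.1%. At the threshold, 228 of the 2461 had exactly 10 reads in their lowest normal library, and 261 predicted transcripts just missed it with 9. Some at that edge were far from even: ncRNA_predict_2515 (2679 bases) had 324, 312, 10 and 152 reads in WT normal 1 and 2 and KO normal 1 and 2. By the same order ncRNA_predict_3921 had 13, 15, 190 and 10 reads. Just outside, ncRNA_predict_5009 had 61, 80, 9 and 113 reads and ncRNA_predict_1255 had 23, 9, 58 and 137. The last of these was left out although its 8 injured libraries held 206 to 553 reads.

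The 8 transcripts with the highest level per length in normal kidney were short, 181 to 447 bases, apart from ncRNA_predict_3069 with 1316 bases. ncRNA_predict_24676 (227 bases) led with 1769 ± 307 RPKM (SD, n = 4) in normal kidney. In the injured kidneys it ranged from 86.3 to 151 RPKM in the 3 libraries of low breadth and from 764 to 1497 RPKM in the other 5. The 2 ranges do not overlap. ncRNA_predict_5763 (270 bases) had 1754 ± 491 RPKM (SD, n = 4) in normal kidney, 32.6 to 58.7 RPKM in the libraries of low breadth and 382 to 1556 RPKM in the other injured ones. ncRNA_predict_16712 (194 bases) had 1415 ± 569.7 RPKM (SD, n = 4) in normal kidney, 8.45 to 55.8 RPKM in the libraries of low breadth and 355 to 1865 RPKM in the other injured ones. ncRNA_predict_3069 had the most even normal level of the 8, 1056 ± 86.7 RPKM (SD, n = 4). It stood at 45.2 to 167 RPKM in WT UUO, 109 to 659.6 in KO UUO, 354 to 472 in WT anti-GBM and 246 to 1112 in KO anti-GBM. Both libraries of each WT injury group were below all 4 normal libraries for this transcript, while KO anti-GBM 2 was level with the highest of them. ncRNA_predict_24118 (181 bases), at 947 ± 198 RPKM (SD, n = 4), was the one of the 8 that did not follow breadth: WT UUO 1 and WT UUO 2 had 79.8 and 47.8 RPKM, and KO anti-GBM 1 and 2 had 859.8 and 1173 RPKM. ncRNA_predict_21275, ncRNA_predict_20904 and ncRNA_predict_5442 averaged 967, 879 and 779 RPKM in normal kidney and were lowest in a library of low breadth.

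**Figure D1:**
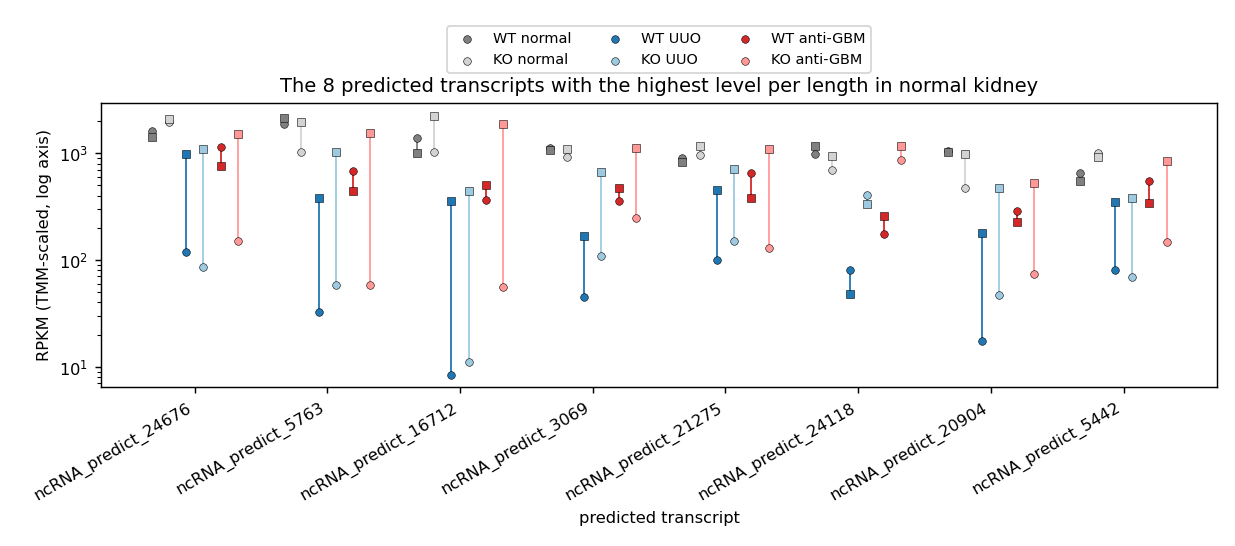
TMM-scaled RPKM (log axis) in each of the 12 libraries for the 8 predicted transcripts of highest level per length in normal kidney; each point is a library, with a circle for library 1, a square for library 2 and a line joining the 2 libraries of a group. In 7 of the 8 the circles of WT UUO, KO UUO and KO anti-GBM lie far below their squares; ncRNA_predict_24118 is the exception.

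The tables also give, for some transcripts, a family model of RFAM, a database of structured RNA families, to which part of the transcript is similar. Such a similarity does not name the whole transcript. A model was given for 476 of the 2461 (19.3%) and for 6.36% of the other predicted transcripts. The 476 carried 66 different models, of which 23 occurred once. Groups of models below were chosen after their names had been seen. The model of the signal recognition particle RNA (SRP_euk_arch), the RNA from which the rodent B1 repeat descends, was given for 230 of the 2461 (9.35%) and for 3.25% of the other predicted transcripts. Their median level in normal kidney was 3.66 RPKM, against 5.95 RPKM for transcripts with no model. snoU90, a model of a small Cajal body RNA, was given for 29. MIR821 and MIR806, models of plant microRNA precursors, were given for 28 and 10. snR37 and snR30, models of yeast small nucleolar RNAs, were given for 9 and 8, and snoU85, another small Cajal body RNA, for 8. Bacterial models were present too, with 7 transcripts each for OLE and tmRNA. Transcripts with a model were longer, with a median of 2069 bases, than the 1985 without one (1149 bases).

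Set beside normal kidney of the same genotype, the predicted transcripts were on balance lower in all 4 injury groups on TMM-scaled CPM (reads per library size), but this rested on the scaling in 3 of them: with library size alone the WT groups were higher than normal and KO UUO was close to it. In whole tissue, fewer cells of a type and less RNA per cell cannot be told apart. Because a floor of 10 reads was asked of the normal libraries alone, nothing is read from the direction of these medians or from the counts that follow. In WT UUO the median difference was -0.81 on the log2 scale, against 0.28 over all 24816 transcripts tested. Both WT UUO libraries lay below both WT normal libraries for 1238 of the 2461 (50.3%; 23.5% of all tested) and above them for 374 (15.2%; 31.0% of all tested). In WT anti-GBM the median was -0.36 against 0.24 over all tested. There 1096 (44.5%; 21.9% of all tested) lay below and 496 (20.2%; 32.7% of all tested) above. In KO UUO the median was -0.64 against -0.08. Of the 2461, 861 (35.0%; 19.3% of all tested) lay below both KO normal libraries and 203 (8.25%; 16.7% of all tested) above. In KO anti-GBM the median was -0.81 against -0.42, with 1008 (41.0%; 28.6% of all tested) below and 224 (9.10%; 11.7% of all tested) above. With library size alone the medians of WT UUO and WT anti-GBM were 0.17 and 0.34, and those over all tested were 1.09 and 0.79. KO UUO then had -0.06 against 0.36 over all tested, and KO anti-GBM -0.85 against -0.43. The 4939 matched transcripts that pass the same threshold of reads had TMM-scaled medians of -0.62, -0.43, -0.32 and -0.08 in WT UUO, WT anti-GBM, KO UUO and KO anti-GBM. In that order 54.2%, 51.8%, 30.6% and 21.6% of them lay below both normal libraries, and 13.0%, 11.6%, 13.8% and 22.8% above. The 2 genotypes share no normal libraries, but UUO and anti-GBM of a genotype are set against the same 2.

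Single libraries of a group differed in this as much as groups did. WT UUO 1 and 2 had medians of -1.05 and -0.54 against WT normal, and KO UUO 1 and 2 had -0.98 and -0.22 against KO normal. WT anti-GBM 1 and 2 were close to each other at -0.32 and -0.35, whereas KO anti-GBM 1 and 2 had -1.18 and -0.23. The 3 largest shortfalls were thus those of the libraries of low breadth. The 2 libraries of a group differed, at the median transcript, by 0.33 (WT normal), 0.51 (KO normal), 1.03 (WT UUO), 1.20 (KO UUO), 0.52 (WT anti-GBM) and 1.24 (KO anti-GBM) on the log2 scale. Of the 2461, 1020 kept 10 or more reads in all 12 libraries and 1836 in the 9 libraries of higher breadth. In 622 an injured library had 0 reads, and in 62 one of the 5 injured libraries of higher breadth did.

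**Figure D2:**
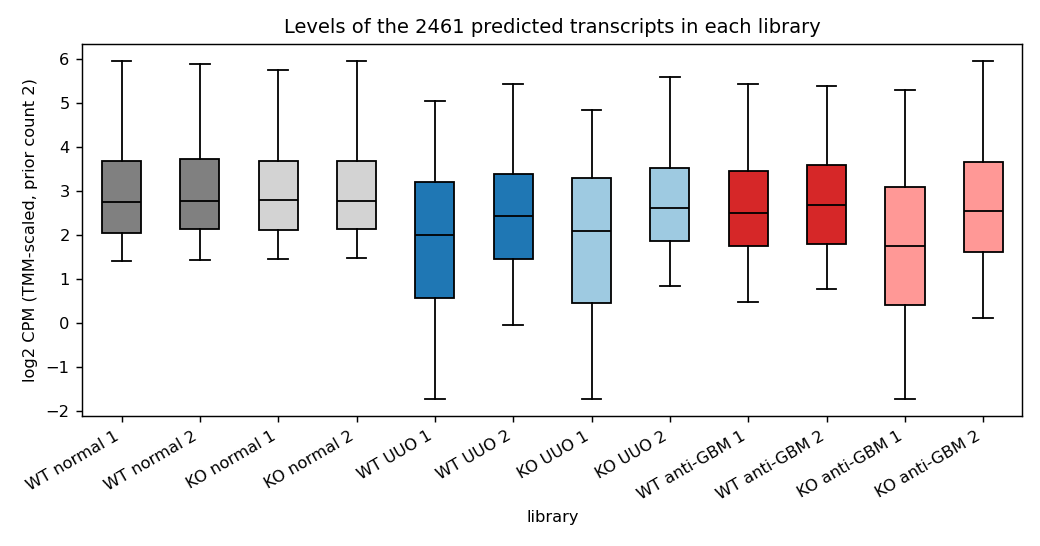
Levels of the 2461 predicted transcripts in each of the 12 libraries, as log2 TMM-scaled CPM with a prior count of 2; the box spans the middle 50% with a line at the median, and whiskers reach from the 5% to the 95% point. The boxes of WT UUO 1, KO UUO 1 and KO anti-GBM 1 reach lowest, with medians of 2.01, 2.08 and 1.76 against 2.75 to 2.81 in normal kidney.

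The highest group mean was that of WT normal for 748 of the 2461 and that of KO normal for 563. It was an injured group's for the rest: WT anti-GBM for 357, WT UUO for 334, KO anti-GBM for 291 and KO UUO for 168. The range between the highest and the lowest group mean had a median of 2.13 on the log2 scale. It was under 1 for 208 transcripts and over 4 for 124. Between the 2 normal groups the median difference, KO minus WT, was 0.01, against 0.02 over all tested. Both KO normal libraries lay above both WT normal libraries for 491 (19.7% of all tested) and below them for 494 (20.1%; 17.6% of all tested).

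The largest differences from normal kidney were sought among transcripts whose mean was at least 10 CPM and whose groups did not overlap. In WT UUO, ncRNA_predict_20518 had 78.7 and 186 CPM in WT UUO 1 and 2 and 3.85 and 3.90 in WT normal 1 and 2, a difference of 4.86 on the log2 scale. ncRNA_predict_5138 (3827 bases) had 27.4 and 80.7 CPM in WT UUO 1 and 2 and 2.14 and 2.60 in WT normal 1 and 2, a difference of 4.15 on the log2 scale. It was at 0 to 18.2 CPM in the other 6 injured libraries. ncRNA_predict_7715 had 151 and 37.5 CPM in WT UUO 1 and 2 and 4.70 and 3.69 in WT normal 1 and 2, a difference of 4.08 on the log2 scale. At the low end in WT UUO, ncRNA_predict_4137, with the model STnc500 of a bacterial RNA, had 0.298 and 1.26 CPM in WT UUO 1 and 2 and 65.0 and 92.1 in WT normal 1 and 2, a difference of -6.32 on the log2 scale. It was also at 2.64 and 5.22 CPM in the 2 KO normal libraries, so its 2 normal groups did not overlap either. ncRNA_predict_2981 had 0 and 0.252 CPM in WT UUO 1 and 2 and 25.9 and 44.2 in WT normal 1 and 2, a difference of -6.38 on the log2 scale. ncRNA_predict_2515, one of the transcripts at the threshold, had 0 and 2.43 CPM in WT UUO 1 and 2 and 69.3 and 67.6 in WT normal 1 and 2, a difference of -6.24 on the log2 scale.

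In WT anti-GBM, ncRNA_predict_6175 (9358 bases) had 41.0 and 59.2 CPM in WT anti-GBM 1 and 2 and 4.92 and 6.07 in WT normal 1 and 2, a difference of 3.10 on the log2 scale. Its KO libraries went the other way, with 10.8 and 2.36 CPM in KO anti-GBM and 20.3 and 16.3 in KO normal. ncRNA_predict_6307 had 15.9 and 22.3 CPM in WT anti-GBM 1 and 2 and 2.57 and 2.38 in WT normal 1 and 2, a difference of 2.78 on the log2 scale. ncRNA_predict_1355 had 107 and 55.7 CPM in WT anti-GBM 1 and 2 and 12.8 and 10.6 in WT normal 1 and 2, a difference of 2.69 on the log2 scale. Lowest against normal in WT anti-GBM were ncRNA_predict_2515 at -5.41, ncRNA_predict_6171 at -5.21 and ncRNA_predict_7551 at -4.83 on the log2 scale. For ncRNA_predict_6171 the 2 WT anti-GBM libraries had 0.244 and 0.654 CPM and the WT normal ones 23.3 and 30.1. For ncRNA_predict_7551 (180 bases) they had 0.732 and 1.63 against 43.6 and 36.6. Both were lower in every injured WT library than in either WT normal library.

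In KO UUO, ncRNA_predict_4954 had 33.6 and 96.9 CPM in KO UUO 1 and 2 and 5.28 and 7.26 in KO normal 1 and 2, a difference of 3.14 on the log2 scale. Its WT normal libraries had 39.1 and 22.5 CPM, so its 2 normal groups did not overlap. KO UUO 1 lay between the WT normal libraries. ncRNA_predict_2563 (3503 bases, model snoU90) had 38.3 and 43.3 CPM in KO UUO 1 and 2 and 4.67 and 9.53 in KO normal 1 and 2, a difference of 2.55 on the log2 scale. ncRNA_predict_20518, which led in WT UUO, was 2.01 higher in KO UUO. The lowest were ncRNA_predict_15892 at -4.70, ncRNA_predict_2635 at -4.67 and ncRNA_predict_16712 at -4.35. In all 3 the library of low breadth was far below its partner, with 0 and 2.84, 0.106 and 28.3 and 2.13 and 85.2 CPM in KO UUO 1 and 2. In KO anti-GBM, ncRNA_predict_1317 had 390.4 and 16.7 CPM in KO anti-GBM 1 and 2 and 12.6 and 5.68 in KO normal 1 and 2, a difference of 3.22 on the log2 scale. This transcript was at 163 to 390.4 CPM in the 3 libraries of low breadth and at 4.68 to 16.7 CPM in the other 9, so it was high in those 3 libraries whatever their group. ncRNA_predict_24529 was likewise at 13.0 to 95.3 CPM in those 3 and at 0.420 to 9.85 CPM in the other 9. ncRNA_predict_16644 was at 27.9 to 145 CPM in those 3 and at 5.64 to 27.8 CPM in the other 9. Lowest in KO anti-GBM were ncRNA_predict_27112 at -5.07, ncRNA_predict_6216 at -4.55 and ncRNA_predict_15250 at -3.49. ncRNA_predict_27112 had 0.258 and 0.591 CPM there against 25.2 and 22.0 in KO normal, so here both libraries were low. For ncRNA_predict_6216, KO anti-GBM 1 and 2 had 0 and 7.09 CPM, against 38.8 and 31.3 in KO normal 1 and 2. For ncRNA_predict_15250 they had 1.03 and 7.48 against 48.3 and 26.8. In both the library of low breadth was the lower one.

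Some transcripts were nearly even over the libraries. The smallest SD of log2 CPM over the 12 libraries, among those averaging at least 10 CPM, was 0.20 for ncRNA_predict_84 (4772 bases). It ranged from 98.3 to 158 CPM, with KO UUO 1 lowest and WT UUO 2 highest. ncRNA_predict_2545 (4162 bases), ncRNA_predict_2538 (3463 bases) and ncRNA_predict_5008 (6687 bases) followed with SDs of 0.25, 0.29 and 0.29. They ranged from 12.2 to 21.1, 11.3 to 22.7 and 16.7 to 31.2 CPM in turn. The first and last of these 3 carry the signal recognition particle model and the middle one the snR37 model. All 4 are longer than 3000 bases. The longest of the 2461, ncRNA_predict_1280 (9511 bases, model snR30), had 33.4 and 41.5 CPM in WT anti-GBM, 39.0 and 49.9 in WT UUO and 11.8 and 7.15 in WT normal. Its KO groups had 15.2 and 10.2 CPM (normal), 20.2 and 12.7 (UUO) and 8.76 and 8.67 (anti-GBM). Both WT injury groups lay above every normal library, whereas KO anti-GBM lay among them. The shortest, ncRNA_predict_8191 (150 bases), showed the opposite order: 38.5 and 23.6 CPM in WT normal, 3.28 and 5.04 in WT UUO, 13.2 and 15.9 in KO normal and 16.5 and 50.4 in KO anti-GBM.

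In WT mice the difference of the 2461 from normal kidney went with transcript length, and in KO mice it followed no single order. A fixed number of reads stands for a lower RPKM in a longer transcript, and median RPKM in normal kidney ran from 23.8 in the 357 transcripts under 501 bases to 2.46 in the 308 over 3000 bases. In WT UUO the median difference from normal was -1.35 for the shortest class, -1.26 for 501 to 1000 bases, -0.92 for 1001 to 2000, -0.45 for 2001 to 3000 and 0.15 for the longest. In WT anti-GBM it ran the same way, from -0.77 to 0.34. In KO UUO the medians from the shortest to the longest class were -0.69, -0.96, -0.67, -0.46 and -0.15. The second class was thus the lowest there, and the longest was the highest, as in WT. In KO anti-GBM they were -0.35, -0.83, -0.91, -0.88 and -0.80, with the middle classes below both ends. Its library of higher breadth, KO anti-GBM 2, ran from 0.13 to -0.53, in the opposite direction to both WT anti-GBM libraries, which ran from -0.61 to 0.34 and from -0.84 to 0.48. Over all transcripts tested, WT anti-GBM 1 and 2 ran from 0.22 to -0.11 and from 0.39 to -0.42. KO anti-GBM 2 ran from -0.09 to 0.09 over all tested. These medians are a description of libraries, and neither the order of the classes nor the difference between genotypes was tested.

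**Figure D3:**
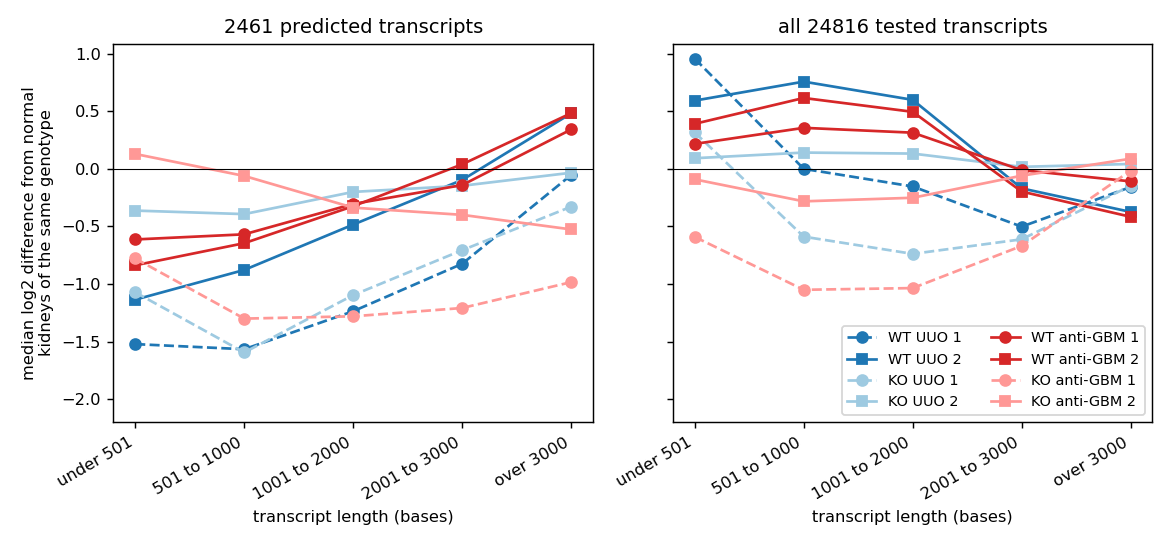
Median log2 difference from the normal kidneys of the same genotype by class of transcript length in bases, for the 2461 predicted transcripts (left) and all 24816 transcripts tested (right); each line is an injured library, dashed for the 3 libraries of low breadth. On the left the lines of WT anti-GBM and WT UUO end higher in the longest class than they start in the shortest, from -0.84 to 0.48 in WT anti-GBM 2, and that of KO anti-GBM 2 descends from 0.13 to -0.53.

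Among the 8 injured libraries, which the choice of transcripts did not use, the difference between genotypes also went with length. In anti-GBM, KO minus WT had a median of 0.52 under 501 bases, 0.12 for 501 to 1000, -0.43 for 1001 to 2000, -0.55 for 2001 to 3000 and -0.95 over 3000 bases. Over all transcripts tested, the corresponding medians were -0.71 in the shortest class and 0.25 in the longest. Without the 3 libraries of low breadth the predicted transcripts ran from 0.79 to -0.84, so the order did not rest on these libraries, but KO anti-GBM is then 1 library. In UUO, KO minus WT ran from 0.43 in the shortest to -0.21 in the longest class. The medians over all transcripts tested were -0.32 and 0.15 in these classes. Without the libraries of low breadth the predicted transcripts ran from 0.69 to -0.32, but WT UUO and KO UUO are then 1 library each. Another scaling moves all classes of a comparison by nearly one amount.

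Which of these transcripts separated obstruction from glomerulonephritis was asked by a test of UUO against anti-GBM, averaged over both genotypes. With edgeR's quasi-likelihood test and Benjamini-Hochberg adjustment over all 24816 transcripts, 34 of the 2461 passed, at an adjusted p under 0.05 (1.38%, against 0.846% of all tested). The share was higher, 2.37%, among the 4939 matched transcripts that pass the same threshold of reads. Of the 34, 10 were higher in UUO (0.406%, against 0.355% of all tested) and 24 were lower (0.975%, against 0.492%). Without the 3 libraries of low breadth, when 3 groups are 1 library each and are assumed to vary like the rest, 225 passed (9.14%; 4.60% of all tested), and 32 of the 34 passed again. DESeq2 on all 12 libraries called 112 (4.55%; 2.92%). All 4 UUO libraries lay above all 4 anti-GBM libraries for 44 of the 2461 (1.79%; 2.86% of all tested) and below them for 72 (2.93%; 1.45%). With library size alone 60 passed (2.06% of all tested), 12 of them lower in UUO. All 10 higher ones and 11 of the 24 lower ones were among these, and of the transcripts named below ncRNA_predict_21154, ncRNA_predict_2770, ncRNA_predict_24118 and ncRNA_predict_7418 were not. With the 8 injured libraries alone 11 passed (0.472% of all tested). These were 5 higher ones, ncRNA_predict_19550, ncRNA_predict_20518, ncRNA_predict_2563, ncRNA_predict_3665 and ncRNA_predict_3666, and 6 lower ones, ncRNA_predict_6143, ncRNA_predict_1319, ncRNA_predict_110, ncRNA_predict_20456, ncRNA_predict_3322 and ncRNA_predict_15712. Leaving out 1 of the 12 libraries, which leaves its group with 1 library, moved the number of passing transcripts both down and up. Most passed without KO UUO 2. Fewer passed than with all 12 without any normal library, either WT anti-GBM library, WT UUO 1 or KO anti-GBM 2. Shares of all tested are not given for these fits, so nothing is read from the size of these changes. Of the 34, 4 of the higher and 2 of the lower ones passed in all 12 such fits.

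The higher ones included transcripts that were low in normal kidney. ncRNA_predict_20518 (690 bases) had 78.7 and 186 CPM in WT UUO, 12.7 and 20.1 in KO UUO, 22.8 and 4.47 in WT anti-GBM and 2.06 and 1.18 in KO anti-GBM. WT anti-GBM 1 was above both KO UUO libraries, and all 4 UUO libraries stood above the normal range of 3.41 to 4.06 CPM. The difference was 3.31 ± 0.51 (SE) on the log2 scale, adjusted p = 0.00149, or 0.00217 from the injured libraries alone. ncRNA_predict_2563, with the snoU90 model, had 52.7 and 50.5 CPM in WT UUO and 38.3 and 43.3 in KO UUO, 14.5 and 13.6 in WT anti-GBM and 2.32 and 3.54 in KO anti-GBM. Its UUO and anti-GBM libraries did not overlap, and the difference was 2.83 ± 0.43 (SE) on the log2 scale, adjusted p = 0.00149, or 0.00301 from the injured libraries alone. ncRNA_predict_3665 (2080 bases) had 88.5 and 163 CPM in WT UUO, 25.9 and 28.6 in KO UUO and 7.48 to 16.0 in the 4 anti-GBM libraries, again without overlap. The difference was 2.45 ± 0.40 (SE) on the log2 scale, adjusted p = 0.00282, or 0.0049 from the injured libraries alone. ncRNA_predict_3666 (2561 bases), which bears the next number, had 216 and 219.5 CPM in WT UUO, 44.4 and 87.8 in KO UUO, 50.4 and 33.9 in WT anti-GBM and 15.5 and 22.8 in KO anti-GBM, a difference of 2.08 ± 0.35 (SE) on the log2 scale, adjusted p = 0.00303, or 0.0114 from the injured libraries alone. It was singled out for its number after its values were seen. KO UUO 1 was below WT anti-GBM 1 there. These 4 transcripts are the higher ones that passed in every fit without 1 library.

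ncRNA_predict_19550 (264 bases) had 45.0 and 52.1 CPM in WT UUO, 7.35 and 9.37 in KO UUO, 2.81 and 5.12 in WT anti-GBM and 0 and 1.77 in KO anti-GBM. UUO and anti-GBM libraries did not overlap, and the difference was 3.37 ± 0.61 (SE) on the log2 scale, adjusted p = 0.00569, or 0.00984 from the injured libraries alone. With 1 library left out, the call was lost without WT anti-GBM 1, where the adjusted p reached 0.0609. ncRNA_predict_6128 (3685 bases), with the model of SNORD17, a C/D box small nucleolar RNA, was even across genotypes. It had 16.1 to 25.4 CPM in the 4 UUO libraries, 3.94 to 6.32 in the 4 anti-GBM libraries and 5.90 to 9.41 in the 4 normal ones, so UUO stood above both of the others, whose ranges met. The difference between UUO and anti-GBM was 2.16 ± 0.47 (SE) on the log2 scale, adjusted p = 0.028, or 0.0862 from the injured libraries alone. Its call was lost in 7 of the 12 fits without 1 library, some of them without a normal one, and the highest adjusted p was 0.184. ncRNA_predict_6194 (4089 bases), a further snoU90 transcript, passed with 1.77 ± 0.40 (SE) on the log2 scale, adjusted p = 0.0362, or 0.156 from the injured libraries alone. Left out in turn, single libraries moved the adjusted p to at most 0.224, and the call was lost in 10 of the 12 fits without 1 library, some of them without a normal one. Its KO UUO libraries, at 31.7 and 24.6 CPM, were above KO normal at 12.0 and 10.7, while WT UUO at 27.4 and 21.1 was below WT normal at 47.5 and 51.4. Of the 29 snoU90 transcripts, 2 passed a test in any comparison. Among all the predicted transcripts described here 1.58% did so, and among all tested 0.983%. The count for snoU90 is small and was not tested, so nothing about this model is read from it. The 3 others of the 10 were ncRNA_predict_5203, ncRNA_predict_31137 and ncRNA_predict_3776, with adjusted p of 0.0193, 0.0366 and 0.0443. From the injured libraries alone it was 0.0756, 0.0981 and 0.0756, so all 3 calls were lost. They passed in 8, 3 and 1 of the 12 fits without 1 library, with adjusted p of up to 0.108, 0.154 and 0.267. For the first and second of these both KO anti-GBM libraries held 0 reads. All 10 passed without the libraries of low breadth.

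Among the 24 transcripts lower in UUO than in anti-GBM, ncRNA_predict_6143 (1356 bases) had 0.745 and 1.26 CPM in WT UUO and 2.02 and 4.18 in KO UUO, against 84.6 and 15.7 in WT anti-GBM and 8.25 and 13.0 in KO anti-GBM. All 4 UUO libraries were below all 4 anti-GBM libraries, and the normal range was 27.8 to 40.0 CPM. The difference was -3.69 ± 0.53 (SE) on the log2 scale, adjusted p = 0.00149, or 0.0027 from the injured libraries alone. ncRNA_predict_1319 (2361 bases, model snoU85) had 2.98 and 4.79 CPM in WT UUO, 11.5 and 7.19 in KO UUO and 22.8 to 44.8 in the 4 anti-GBM libraries, whose range took in that of normal kidney. Its difference was -2.45 ± 0.41 (SE) on the log2 scale, adjusted p = 0.0033, or 0.0199 from the injured libraries alone, and it and ncRNA_predict_6143 are the lower ones that passed in every fit without 1 library. ncRNA_predict_1351 (274 bases) had 0 and 1.34 CPM in WT UUO, 2.66 and 7.86 in KO UUO, 5.86 and 21.5 in WT anti-GBM and 15.7 and 52.4 in KO anti-GBM, a difference of -3.44 ± 0.72 (SE) on the log2 scale, adjusted p = 0.0375, or 0.0642 from the injured libraries alone. The call was lost in 7 of the 12 fits without 1 library, some of them without a normal one, with an adjusted p of up to 0.144. Its KO UUO 2 library exceeded WT anti-GBM 1. ncRNA_predict_20456 (968 bases) had 0.639 to 7.75 CPM in UUO and 14.2 to 36.2 in anti-GBM, without overlap, and a difference of -2.92 ± 0.55 (SE) on the log2 scale, adjusted p = 0.00979, or 0.0204 from the injured libraries alone. With 1 library left out, the call was lost without KO anti-GBM 2, where the adjusted p reached 0.0635.

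ncRNA_predict_5053 (2966 bases), with the model of the connexin 43 internal ribosome entry site, had 0.924 to 4.18 CPM in UUO and 9.88 and 5.12 in WT anti-GBM. KO anti-GBM was higher, at 50.0 and 22.1 CPM, and the difference between UUO and anti-GBM was -2.53 ± 0.53 (SE) on the log2 scale, adjusted p = 0.0225, or 0.0642 from the injured libraries alone. Its call was lost without WT normal 1, WT UUO 2, KO UUO 1, WT anti-GBM 1 or KO anti-GBM 1, and the highest adjusted p was 0.0891. ncRNA_predict_110 (2524 bases), the one transcript with the signal recognition particle model among the 230 to pass any test, had 1.34 and 1.18 CPM in WT UUO, 11.0 and 3.51 in KO UUO, 15.1 and 14.1 in WT anti-GBM and 76.3 and 64.6 in KO anti-GBM. The 2 KO normal libraries stood far apart for it, at 136 and 15.0 CPM. Its difference was -3.40 ± 0.57 (SE) on the log2 scale, adjusted p = 0.00457, or 0.00192 from the injured libraries alone, and without the libraries of low breadth the adjusted p was 0.22. Left out in turn, single libraries moved the adjusted p to at most 0.0594, and the call was lost without WT UUO 1. The other transcript lost there was ncRNA_predict_2770, with an adjusted p of 0.16. It passed in 3 of the 12 fits without 1 library and was also lost with the injured libraries alone, at 0.103, and with library size alone, at 0.0593. The other lower ones had differences of -2.78 to -1.54. They included ncRNA_predict_21154 (436 bases), one of high level, with 244 to 337 CPM in normal kidney, 32.6 and 55.5 in WT UUO, 40.1 and 135 in KO UUO, 140.4 and 145 in WT anti-GBM and 144 and 389 in KO anti-GBM. KO UUO 2 was close to the lower anti-GBM libraries there. It was chosen for its level after its values were seen. It passed in 3 of the 12 fits without 1 library, and its adjusted p of 0.0375 became 0.0888 with the injured libraries alone and 0.0518 with library size alone.

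**Figure D4:**
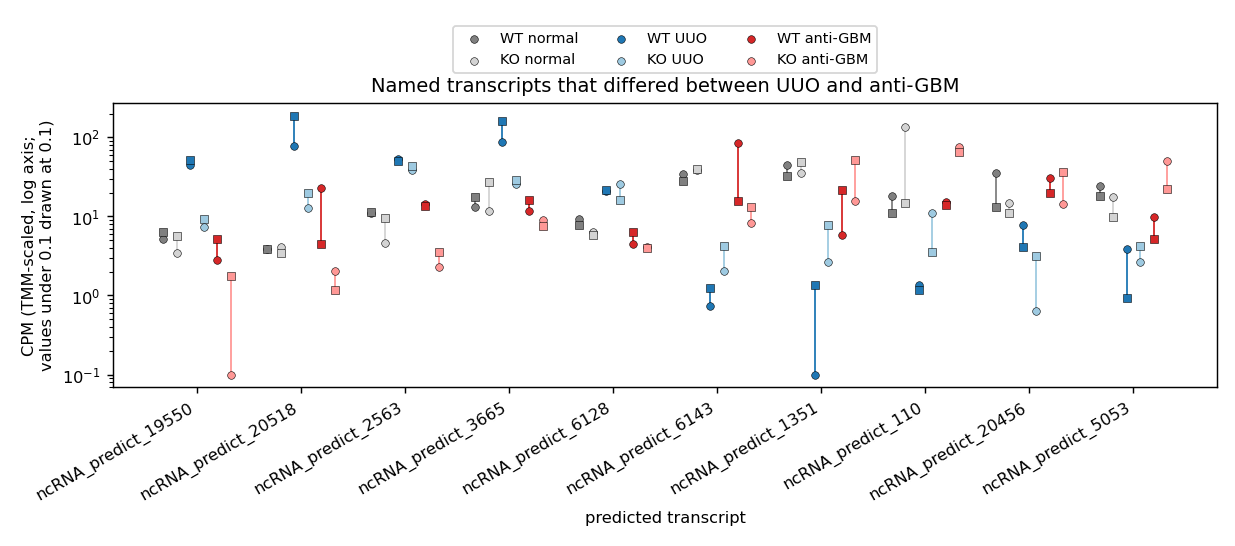
TMM-scaled CPM (log axis, values under 0.1 drawn at 0.1) in each of the 12 libraries for 10 predicted transcripts that passed the test of UUO against anti-GBM, 5 higher on the left and 5 lower on the right; each point is a library, with a circle for library 1, a square for library 2 and a line joining the 2 libraries of a group. The UUO points of ncRNA_predict_6143 lie between 0.745 and 4.18 CPM and its anti-GBM points between 8.25 and 84.6 CPM.

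Within WT mice, 3 of the 2461 passed the same test of UUO against anti-GBM (0.122%, against 0.0967% of all tested), and without the libraries of low breadth 61 passed (2.48%; 1.29% of all tested), while DESeq2 on all 12 called 37 (1.5%; 0.830%). ncRNA_predict_3665, described above, was higher in WT UUO by 3.18 ± 0.58 (SE) on the log2 scale, adjusted p = 0.0247, or 0.045 from the injured libraries alone. The call was lost without WT normal 1, WT normal 2, WT UUO 2, WT anti-GBM 1 or WT anti-GBM 2, with an adjusted p of up to 0.517. ncRNA_predict_6143 was lower by 5.59 ± 0.82 (SE) on the log2 scale, adjusted p = 0.00417, or 0.0136 from the injured libraries alone. With 1 library left out, the call was lost without WT UUO 1 or WT anti-GBM 1, where the adjusted p reached 0.0756. ncRNA_predict_7418 (458 bases) had 2.09 and 1.76 CPM in WT UUO against 15.3 and 35.1 in WT anti-GBM, with 30.6 to 46.1 CPM in normal kidney. These groups did not overlap, and the difference was -3.70 ± 0.67 (SE) on the log2 scale, adjusted p = 0.0247, or 0.101 from the injured libraries alone. Its call was lost without WT normal 1, WT normal 2, WT UUO 1, WT UUO 2 or WT anti-GBM 2, and the highest adjusted p was 0.387. In KO UUO the same transcript had 22.4 and 8.03 CPM, and in KO anti-GBM 20.1 and 21.9, which do overlap. ncRNA_predict_7418 also passed the averaged test of UUO against anti-GBM, at -2.08 ± 0.44 (SE) on the log2 scale, adjusted p = 0.0244. That call was lost with the injured libraries alone, at 0.104, and with library size alone, at 0.0794. Within KO mice 1 of the 2461 passed (0.0406%, against 0.0242% of all tested), and without the libraries of low breadth 145 passed (5.89%; 2.73%), while DESeq2 on all 12 called 72 (2.93%; 1.70%). It was ncRNA_predict_2563, higher in KO UUO by 3.78 ± 0.64 (SE) on the log2 scale, adjusted p = 0.0227, or 0.0542 from the injured libraries alone. Left out in turn, single libraries moved the adjusted p to at most 0.0969, and the call was lost without WT normal 1, WT normal 2, KO anti-GBM 1 or KO anti-GBM 2. With edgeR on all 12 libraries, 0.324% of the 4939 matched transcripts of the same threshold passed within WT mice and 0.081% within KO mice. The injured libraries of WT and KO mice are separate, but with all 12 libraries each of these comparisons rests on 2 libraries a group. Without the libraries of low breadth, WT UUO, KO UUO and KO anti-GBM are 1 library each. Those groups are then assumed to vary like the rest, so nothing is read from the higher counts of these fits.

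Which of these transcripts differed between genotypes in injured kidneys was asked by the test of KO against WT averaged over UUO and anti-GBM. Here 8 of the 2461 passed (0.325%, against 0.234% of all tested), 7 higher in KO (0.284%, against 0.181% of all tested) and 1 lower (0.0406%, against 0.0524%). Of the 4939 matched transcripts that pass the same threshold of reads, 0.769% passed, a higher share. All 8 passed again without the libraries of low breadth, where 319 of the 2461 did (13.0%; 6.81% of all tested), and DESeq2 on all 12 libraries called 125 (5.08%; 2.71%). All 4 injured KO libraries lay above all 4 injured WT libraries for 56 (2.28%; 1.31% of all tested) and below them for 61 (2.48%; 5.04%). The direction depended on the scaling: with library size alone 132 passed (2.74% of all tested), 125 of them lower in KO, and with DESeq2's size factors 19 passed (0.395%), 11 of them lower, although each of the 8 kept its own direction. With the 8 injured libraries alone 4 passed (0.133% of all tested), namely ncRNA_predict_24118, ncRNA_predict_71, ncRNA_predict_691 and ncRNA_predict_20518, and with library size alone ncRNA_predict_4949 was lost. Without 1 library of the 12, fewest passed without WT anti-GBM 1 and most without KO UUO 2. Fewer passed than with all 12 without WT UUO 2 or either WT normal library. More passed without WT UUO 1, KO UUO 1 or KO anti-GBM 1. Shares of all tested are not given for these fits, so nothing is read from the size of these changes.

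ncRNA_predict_24118 (181 bases), one of the 8 transcripts of highest level in normal kidney, had 31.7 and 46.3 CPM in WT anti-GBM and 14.5 and 8.65 in WT UUO, against 73.1 and 60.4 in KO UUO and 156 and 212 in KO anti-GBM. Every injured KO library was above every injured WT library, and the KO anti-GBM libraries were within or near the normal range of 125 to 212 CPM. The difference was 2.39 ± 0.33 (SE) on the log2 scale, adjusted p = 0.00121, or 0.0106 from the injured libraries alone, and it passed in all 12 fits without 1 library, the only one of the 8 to do so. ncRNA_predict_71 (6563 bases) had 55.6 and 58.7 CPM in WT anti-GBM, 39.8 and 37.1 in WT UUO, 116 and 96.0 in KO UUO and 221 and 327 in KO anti-GBM. Genotypes did not overlap, and the difference was 1.86 ± 0.31 (SE) on the log2 scale, adjusted p = 0.00702, or 0.0361 from the injured libraries alone. It was lost in 1 of the 12 fits, without WT anti-GBM 1, where the adjusted p was 0.0912. Its normal range was 112 to 134 CPM, so injured WT libraries were below it in both models and KO anti-GBM exceeded it.

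ncRNA_predict_4949 (395 bases) had 51.4 and 53.4 CPM in WT anti-GBM, 33.1 and 15.3 in WT UUO, 108 and 60.6 in KO UUO and 153 and 174 in KO anti-GBM. These too did not overlap, and the difference was 1.73 ± 0.35 (SE) on the log2 scale, adjusted p = 0.0302, or 0.104 from the injured libraries alone. The call was lost in 8 of the 12 fits without 1 library, some of them without a normal one, with an adjusted p of up to 0.232. ncRNA_predict_691 (246 bases) had 6.10 and 11.3 CPM in WT anti-GBM, 6.70 and 2.77 in WT UUO, 31.2 and 9.70 in KO UUO and 95.3 and 75.6 in KO anti-GBM. KO UUO 2 was below WT anti-GBM 2, so the genotypes overlapped by 1 library, and the difference was 2.71 ± 0.45 (SE) on the log2 scale, adjusted p = 0.00702, or 0.0254 from the injured libraries alone. With 1 library left out, the call was lost without WT UUO 2 or WT anti-GBM 1, where the adjusted p reached 0.101. ncRNA_predict_12590 (1239 bases) had 67.1 and 27.2 CPM in WT anti-GBM, 5.51 and 12.3 in WT UUO, 35.8 and 73.4 in KO UUO and 93.3 and 173 in KO anti-GBM, with a difference of 2.05 ± 0.40 (SE) on the log2 scale, adjusted p = 0.0197, or 0.0691 from the injured libraries alone. Its call was lost without WT UUO 1, WT anti-GBM 1, WT anti-GBM 2 or KO anti-GBM 2, and the highest adjusted p was 0.114. KO UUO 1 was below WT anti-GBM 1 for it. ncRNA_predict_14719 and ncRNA_predict_6110 passed as well, at differences of 2.61 and 2.77, but each was kept in only 3 of the 12 fits without 1 library, with adjusted p of up to 0.254 and 0.266. From the injured libraries alone the adjusted p was 0.123 and 0.168. The one transcript lower in KO was ncRNA_predict_20518, at -3.05 ± 0.50 (SE) on the log2 scale, adjusted p = 0.00702, or 0.0106 from the injured libraries alone. Left out in turn, single libraries moved the adjusted p to at most 0.101, and the call was lost without WT UUO 2, WT anti-GBM 1 or KO anti-GBM 2. Its KO UUO libraries lay between the 2 WT anti-GBM libraries, so genotypes overlapped across models, though not within either model. It, ncRNA_predict_24118, ncRNA_predict_12590 and ncRNA_predict_6110 also passed the test of UUO against anti-GBM; both tests use the same 8 injured libraries. For ncRNA_predict_20518 that call was kept with the injured libraries alone. For the other 3 it was lost there, at adjusted p of 0.0756, 0.067 and 0.0923, and they passed in 9, 6 and 9 of the 12 fits without 1 library. ncRNA_predict_24118 was also lost with library size alone, at 0.0696.

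**Figure D5:**
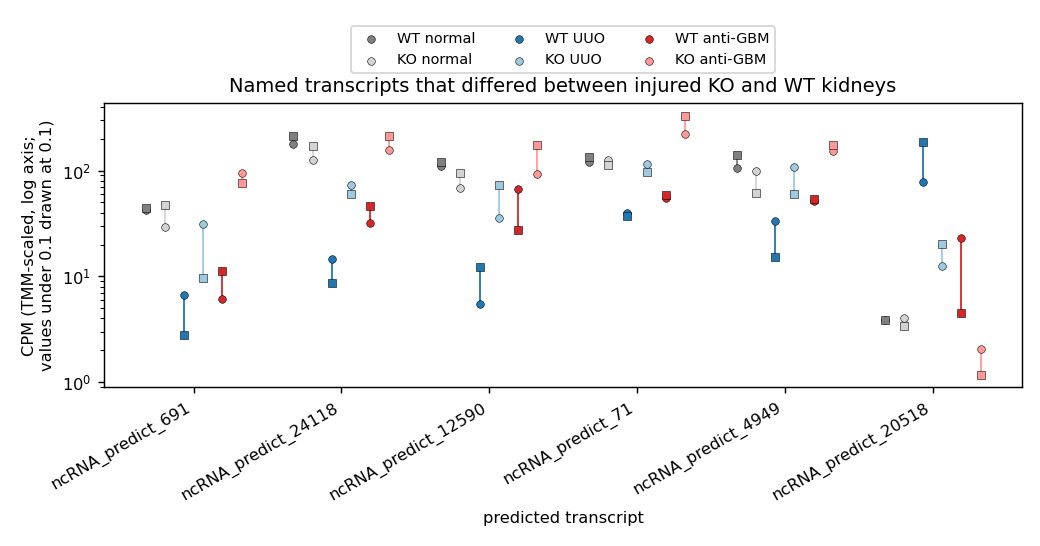
TMM-scaled CPM (log axis) in each of the 12 libraries for 6 predicted transcripts that passed the test of KO against WT over injured kidneys, 5 higher in KO and ncRNA_predict_20518 lower; each point is a library, with a circle for library 1, a square for library 2 and a line joining the 2 libraries of a group. For ncRNA_predict_71 the 4 injured WT points lie between 37.1 and 58.7 CPM and the 4 injured KO points between 96.0 and 327 CPM.

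Within anti-GBM, 1 of the 2461 passed the test of KO against WT (0.0406%, against 0.0201% of all tested), and 339 passed without the libraries of low breadth (13.8%; 7.00% of all tested), where KO anti-GBM is a single library; DESeq2 on all 12 called 107 (4.35%; 1.75%). The transcript was ncRNA_predict_3772 (5254 bases, with the GlmZ_SraJ model of a bacterial small RNA). It had 1.55 and 3.54 CPM in KO anti-GBM and 37.0 and 59.8 in WT anti-GBM, with 17.9 to 46.6 in normal kidney and 12.2 to 48.2 in UUO. Both KO anti-GBM libraries were below all the other 10, and the difference was -4.22 ± 0.74 (SE) on the log2 scale, adjusted p = 0.0405, or 0.0852 from the injured libraries alone. It passed in 4 of the 12 fits without 1 library, those that left out a UUO library, with adjusted p over all 12 from 0.0056 to 0.243. Within UUO, 0 of the 2461 passed with edgeR (0.00806% of all tested). At an unadjusted p of 0.05, 199 did (8.09%, against 6.08% of all tested), DESeq2 called 28 (1.14%; 0.447%), and edgeR without the libraries of low breadth called 28 (1.14%; 0.476%).

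A test of the interaction asked whether the difference between KO and WT itself differed between UUO and anti-GBM. None of the 2461 passed it with edgeR (0 called, 0.00403% of all tested). At an unadjusted p of 0.05, 221 did (8.98%, against 7.45% of all tested), DESeq2 called 13 (0.528%; 0.210%), and edgeR without the libraries of low breadth called 29 (1.18%; 0.407%). Over the 7 tests, 39 of the 2461 passed at least 1 (1.58%; 0.983% of all tested), with 47 passing results in all. Of the 39, 31 carry no RFAM model, as do 80.7% of the 2461. Of the 4939 matched transcripts of the same threshold, 0.081% passed KO against WT in anti-GBM with edgeR. For KO against WT in UUO and for the interaction the share was 0.0202% each. Passing in one model or genotype and not in the other is thus not shown to be a difference between them.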

How the data were processed

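The deposited tables give, per the file headers, the count of uniquely mapped reads, the length, the percent of bases covered, RPKM and the mean depth of coverage (a signal) of each transcript. The authors' RPKM can be rebuilt from the listed reads, their sum and the lengths. Per the labels' protocols, RNA was freed of ribosomal RNA and the longer fraction of a gel was used. Bowtie 0.12.7 and mm9 are named in the submitters' processing notes; how transcripts were predicted, any strand setting and RNA quality are not given in the sources used here, so reads of overlapping or antisense transcripts cannot be told apart.

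Differences in counts were assessed in R 4.3.3 by edgeR 4.0.16 (TMM, filterByExpr by group, 1 mean per group over all 12 libraries, robust quasi-likelihood fit, Benjamini-Hochberg over 24816 transcripts). The filter kept all 2461. Their 10 or more reads in the normal libraries were enough for this, so nothing is read from it. The SE came from the F statistic. Log2 CPM for descriptions used a prior count of 2. Breadth used a read length of 90 bases, which the deposited depth gives. The scripts were tested on simulated data. Members and lists were chosen with earlier results of these data known. Most named transcripts were taken by a rule of level per length in normal kidney, largest differences at a mean of 10 CPM or more, smallest SD, length and nearness to the threshold. The others, among them ncRNA_predict_1319, ncRNA_predict_6194 and ncRNA_predict_2770, were named after their values or test results were seen. Alternatives were DESeq2 1.42.0, its size factors, library size alone, no filter, injured libraries only, other thresholds and prior counts, and leaving out libraries.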

Additional observations from a re-analysis of the deposited data

Results flagged for a closer look

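In 414 of the 2461 (16.8%), and in 17.2% of all transcripts tested, both WT libraries of an injury lay on one side of both WT normal libraries and both KO libraries on the other side of both KO normal ones. The 11 below are those among 50 named transcripts, many of them named for large differences. The difference between genotypes in the change from normal was not tested for any of them, since the normal libraries chose the transcripts. Among injured kidneys alone, ncRNA_predict_691, ncRNA_predict_71, ncRNA_predict_4949 and ncRNA_predict_20518 passed the averaged test of KO against WT given above. Values are log2 differences from normal kidney of the same genotype, and the difference of WT and KO is WT minus KO. Against normal, anti-GBM was higher in WT and lower in KO for 4 transcripts. ncRNA_predict_6175 had 3.10 in WT and -1.77 in KO, a difference of 4.87. ncRNA_predict_1280, the longest, had 1.99 in WT and -0.50 in KO, a difference of 2.49. ncRNA_predict_20518 had 1.33 in WT and -1.10 in KO, a difference of 2.43. ncRNA_predict_2563, with the snoU90 model, had 0.32 in WT and -1.14 in KO, a difference of 1.46.

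Anti-GBM was lower in WT and higher in KO for 6 transcripts. ncRNA_predict_24529 had -1.49 in WT and 2.90 in KO, a difference of -4.39, and it was highest in the libraries of low breadth. ncRNA_predict_691 had -2.34 in WT and 1.19 in KO, a difference of -3.53. ncRNA_predict_5053, with the connexin 43 model, had -1.53 in WT and 1.32 in KO, a difference of -2.85. ncRNA_predict_71 had -1.15 in WT and 1.18 in KO, a difference of -2.33. ncRNA_predict_4949 had -1.22 in WT and 1.06 in KO, a difference of -2.28. ncRNA_predict_8191, the shortest, had -1.24 in WT and 0.98 in KO, a difference of -2.22. In UUO the case was ncRNA_predict_15250, with 1.50 in WT and -1.77 in KO, a difference of 3.27.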

How the results depend on the processing

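Each of the 47 passing results kept its direction under all alternatives run. With DESeq2's size factors, DESeq2's own test or no filter on low counts all 47 passed again, with library size alone 33, with the 8 injured libraries only 17, and without the 3 libraries of low breadth 45. In fits without 1 library, where the lone library of a group is assumed to vary like the others, 322 of 564 results passed. The cause of these changes was not tested.

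Counts of the 2461 passing moved as follows, in the order WT UUO against WT anti-GBM (3), KO UUO against KO anti-GBM (1), KO against WT in UUO (0), KO against WT in anti-GBM (1), UUO against anti-GBM averaged (34), KO against WT averaged (8) and the interaction (0). DESeq2 gave 37, 72, 28, 107, 112, 125 and 13. No filter gave 33, 31, 21, 43, 85, 51 and 16, with more transcripts tested. Where no share of all tested is given for a count, here or above, nothing about these transcripts is read from it. Dropping the libraries of low breadth gave 61, 145, 28, 339, 225, 319 and 29. Library size alone gave 6, 38, 3, 70, 60 and 132 for the first 6, with 12 of the 60 and 125 of the 132 lower; TMM had 24 of 34 and 1 of 8 lower. DESeq2's size factors in edgeR gave 5 for the first, 1 and 5 for KO against WT in UUO and anti-GBM, and 19 (11 lower) for KO against WT averaged. The injured libraries alone gave 0 for KO UUO against KO anti-GBM, 0 for KO against WT in anti-GBM, 11 and 4 for the averaged tests. Without 1 library the ranges were 1 to 14, 0 to 27, 0 to 5, 0 to 28, 14 to 188, 1 to 184 and 0 to 1.

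A threshold of 20 reads left 1222 transcripts and a median for WT anti-GBM against normal of -0.51. Medians against normal with library size alone were 0.17 (WT UUO), 0.34 (WT anti-GBM), -0.0576 (KO UUO) and 0.0562 (KO normal against WT normal); with DESeq2's size factors they were -0.18 for WT anti-GBM and 0.0365 for the normal groups. Leaving out 1 library gave -1.05 to -0.54, -0.36 to -0.32, -0.98 to -0.22, -1.18 to -0.23 and -0.01 to 0.02. Transcripts with few reads limit all of this: the median in normal libraries was 29 to 33 reads. No paired analysis was possible because the labels give the libraries codes and no shared replicate numbers.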

Other observations

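Medians of some RFAM models differed from those of transcripts with none. In KO anti-GBM the 476 with any model had a median of -0.82 and those with none -0.80. The 6 transcripts with the snoTBR17 model had median log2 differences from normal of -2.84 in WT UUO, -2.07 in WT anti-GBM, -1.82 in KO UUO and -1.21 in KO anti-GBM. The 7 with the OLE model had 0.63, 0.60, -0.53 and -1.05 in the same order. Median lengths were 1093 bases for snoTBR17, 2916 for OLE and 1149 with no model, and length was not taken into account. For the 230 with the signal recognition particle model they were -0.29, -0.11, -0.36 and -0.80, and for the 1985 with no model -0.90, -0.41, -0.68 and -0.80. The models were picked after their values were seen and these medians were not tested.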
